A study of Mus musculus with 38 samples.

Results

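The genes of the voltage-gated calcium and sodium channels were followed through the hippocampus of 38 mice. Members were all protein-coding genes whose mouse symbol begins with Cacna1, Cacna2d, Cacnb, Cacng or Scn followed by a number, which gave 40 of the 48709 genes counted. They comprised 10 Cacna1, 4 Cacna2d, 4 Cacnb and 8 Cacng genes on the calcium side, and 10 alpha and 4 beta subunit genes on the sodium side. The mice were C57BL/6, either wild-type (WT) littermates or APPPS1dE9 (labelled APPdelta9), a line that carries a mutant amyloid precursor protein among its transgenes. They received chow without the compound (placebo) or chow with anle138b, an orally available small molecule that acts on protein aggregates. In the pre-plaque cohort hippocampi were taken at 6 months of age, with 4 mice in each of the 4 combinations of genotype and chow. In the post-plaque cohort they were taken at 10 months, with 5 WT placebo, 5 WT anle138b, 5 APPPS1dE9 placebo and 7 APPPS1dE9 anle138b mice. The comparisons ask whether transcript levels of the channels differed with genotype, with anle138b, or between the cohorts.

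Voltage-gated calcium channels open on depolarisation and let calcium into the cell, where it triggers transmitter release, dendritic signalling and transcription. The pore is a Cacna1 product, while the Cacna2d and Cacnb products act on its trafficking and gating. Most Cacng products are better known as TARPs, auxiliary subunits of AMPA receptors. Voltage-gated sodium channels carry the upstroke of the action potential. Their pore is an Scn alpha subunit, and the Scn beta subunits modulate gating and act in cell adhesion.

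Libraries held 15847985 to 31895808 counts over genes, with a median of 24530658. Levels are given as CPM, the counts of a gene scaled to a common library size by TMM, and each library is 1 mouse. App, which the transgene raises, lay at 1506 to 1809 CPM in the WT mice and at 3228 to 4318 CPM in the APPPS1dE9 mice, so the genotypes did not overlap. The 4 pre-plaque WT placebo libraries were titled WT, but a genotype field called them APPdelta9, and their App values of 1624 to 1796 CPM were at the WT level. Although all mice were described as male, 12 of the 38 had Xist at 1154 to 1453 CPM with summed Y-linked genes at up to 1.89 CPM. Of these, 11 were WT and 1 was APPPS1dE9. Sequencing lanes followed the groups closely, so lane and group cannot be told apart in most comparisons. Markers of hippocampal principal neurons summed to 5298 to 8473 CPM over all mice. Ttr, the defining marker of choroid plexus, split the pre-plaque mice into 10 at 3731 to 7509 CPM and 6 at 32.3 to 655 CPM. Summed oligodendrocyte markers ran from 4963 to 6476 CPM in the pre-plaque and from 2404 to 7590 CPM in the post-plaque mice, and their part in the results was not tested. In whole tissue, fewer cells of a type and less RNA per cell cannot be told apart.

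The 40 genes are spread over the genome with several tight clusters (GRCm38, GENCODE M21). On chromosome 2, Scn3a, Scn2a, Scn1a, Scn9a and Scn7a lie between 65457118 and 66784914. On chromosome 9, Scn2b lies next to Scn4b between 45117782 and 45154152. On chromosome 7, Cacng7, Cacng8 and Cacng6 lie between 3332955 and 3435667, and on chromosome 11, Cacng1, Cacng4 and Cacng5 between 107703218 and 107915055. Exons of 10 members overlap an annotated gene on the other strand (among them Cacna1a, Cacna1d, Cacna1h, Cacnb4 and Scn9a), and whether counting used the strand is not given in the sources used here.

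Promoter sequences from RefSeq (GRCm38.p6) were found for 30 of the 40 members. CG dinucleotides were counted in the 250 bases before each start. The 8 of these members with a level per length (CPM per kilobase of exon) below 1 had 3 to 9 CG, and 0 of the 8 reached 10. Of the 33 starts of the other 22 members, 16 had at least 10 CG (48.5%), and of all 41 member starts 16 did (39.02%), a share near the 37.8% of the 32851 mouse promoters in the table. The 7 of these 22 members without such a start were Scn2b (1 CG), Cacng7 (9), Cacng8 (0), Scn2a (9 and 2 at its starts), Cacna1e (6), Cacng3 (8) and Scn1a (4), which include some of the highest levels per length. By GENCODE M21 coordinates the stretches counted for Cacng8, Cacna1e and Cacng3 lie inside the gene, so a start farther upstream may be missing here. The sequences printed here hold 0 to 30 CG, with 3 expressed members followed by 2 that were close to undetected, and capitals marking CG. Higher counts occurred among the members, up to 50 CG at a start of Cacna1d. Scn8a and Cacnb3 each have another start, with 9 and 2 CG, that is not printed. The printed sequences come from chr15:100870395-100870644 (plus strand, 30 CG) for Scn8a, chr15:98634517-98634766 (plus, 23 CG) for Cacnb3, chr7:3393792-3394041 (plus, 0 CG) for Cacng8, chr11:106349391-106349640 (minus, 4 CG) for Scn4a and chr9:119825457-119825706 (minus, 3 CG) for Scn11a. In GENCODE M21 the Cacng8 gene begins at 3390683, so its stretch lies inside the gene, as do those of Scn8a, Cacnb3 and Scn4a. Which starts these mice use was not tested.
Scn8a: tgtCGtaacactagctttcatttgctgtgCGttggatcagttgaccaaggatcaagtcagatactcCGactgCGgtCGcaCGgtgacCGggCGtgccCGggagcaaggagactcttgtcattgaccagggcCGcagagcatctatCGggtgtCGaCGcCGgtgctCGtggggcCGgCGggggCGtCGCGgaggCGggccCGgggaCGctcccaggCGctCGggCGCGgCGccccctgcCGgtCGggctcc
Cacnb3: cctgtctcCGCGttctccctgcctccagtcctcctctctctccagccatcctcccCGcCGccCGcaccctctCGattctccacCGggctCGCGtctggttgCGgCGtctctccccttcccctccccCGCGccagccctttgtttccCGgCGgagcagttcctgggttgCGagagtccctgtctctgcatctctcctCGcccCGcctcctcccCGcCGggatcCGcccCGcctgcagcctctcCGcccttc
Cacng8: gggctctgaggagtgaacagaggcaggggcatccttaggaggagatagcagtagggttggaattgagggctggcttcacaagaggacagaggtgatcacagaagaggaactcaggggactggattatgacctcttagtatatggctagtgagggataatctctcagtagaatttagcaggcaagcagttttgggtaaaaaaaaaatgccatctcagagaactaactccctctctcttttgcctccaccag
Scn4a: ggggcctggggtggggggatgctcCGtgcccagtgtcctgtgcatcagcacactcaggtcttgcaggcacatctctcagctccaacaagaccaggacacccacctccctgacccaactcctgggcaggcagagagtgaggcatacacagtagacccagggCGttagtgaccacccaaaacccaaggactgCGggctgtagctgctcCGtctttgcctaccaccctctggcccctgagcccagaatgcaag
Scn11a: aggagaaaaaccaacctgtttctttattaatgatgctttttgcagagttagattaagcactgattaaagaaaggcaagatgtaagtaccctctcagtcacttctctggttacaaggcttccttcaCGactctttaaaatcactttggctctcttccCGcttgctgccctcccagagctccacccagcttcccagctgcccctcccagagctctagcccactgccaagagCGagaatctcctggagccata

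Levels between genes were compared as CPM per kilobase of annotated exon (RPKM), as means over the 38 mice. Among the sodium channel beta subunit genes, Scn3b had 61.6 ± 14.4 RPKM (SD, n = 38) and Scn2b 60.5 ± 3.15. The order of Scn3b and Scn2b was not settled, since Scn3b was the higher of the pair in 18 of 38 mice. Scn4b was lower, at 5.64 RPKM.

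Among the sodium channel pores, Scn8a (31.2 ± 4.04 RPKM, n = 38) and Scn2a (27.4 ± 2.05) led, the main channels of the axon initial segment of excitatory neurons. Scn8a was above Scn2a in 29 of 38 mice. Scn1a, best known from inhibitory neurons, had 12.3 RPKM and Scn3a, prominent in the developing brain, 5.26. The other pores were below 1 RPKM. Scn7a, a sodium-sensing channel, had 0.944 RPKM and Scn9a of sensory neurons 0.449. Scn10a and Scn11a of sensory neurons and Scn4a of skeletal muscle had means of at most 0.0151 RPKM.

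Among the calcium channel pores, Cacna1e (R type) had the highest level per length, 21.5 ± 3.13 RPKM (n = 38), ahead of Cacna1b (N type, 17.4), Cacna1h (T type, 16.7) and Cacna1a (P/Q type, 14.9). Cacna1b exceeded Cacna1h in 26 of 38 mice, and Cacna1h exceeded Cacna1a in 26 of 38, so these neighbours overlapped, and by the longest transcript Cacna1a (21.4) was above Cacna1h (19.9) and Cacna1b (17.8). The T-type genes Cacna1g (8.38) and Cacna1i (7.13) and the L-type genes Cacna1c (7.37) and Cacna1d (6.38) formed a second tier with overlapping values. The L-type pores of retina (Cacna1f, 0.078) and skeletal muscle (Cacna1s, 0.036) were close to the floor.

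Within the auxiliary families, Cacna2d1 (20.4 ± 1.71 RPKM, n = 38), a target of gabapentin, was above Cacna2d3 (15.2) in 38 of 38 mice by the union of exons. By the longest transcript Cacna2d3 (35.9) was above Cacna2d1 (34.1). Cacnb3 led the beta subunits with 50.01 ± 3.80 RPKM, followed by Cacnb1 (27.9), Cacnb4 (14.5) and Cacnb2 (6.26), in that order in 38 of 38 mice for each neighbouring pair, although by the longest transcript Cacnb2 (16.5) was above Cacnb4 (15.7). In the Cacng family the TARPs Cacng7 (52.1 ± 3.79), Cacng8 (33.8), Cacng3 (19.7) and Cacng2 (11.1) led, also in 38 of 38 mice for each step. The muscle subunit Cacng1 was close to the floor at 0.024 RPKM.

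Cacng1, Scn4a, Scn10a and Scn11a did not pass the filter on low counts in any comparison, with 0 to 10 counts per library. Cacna1s, with 0 to 15 counts per library, passed only in the fits over all 38 mice. Tests therefore covered 35 or 36 of the 40 members.

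**Figure D1:**
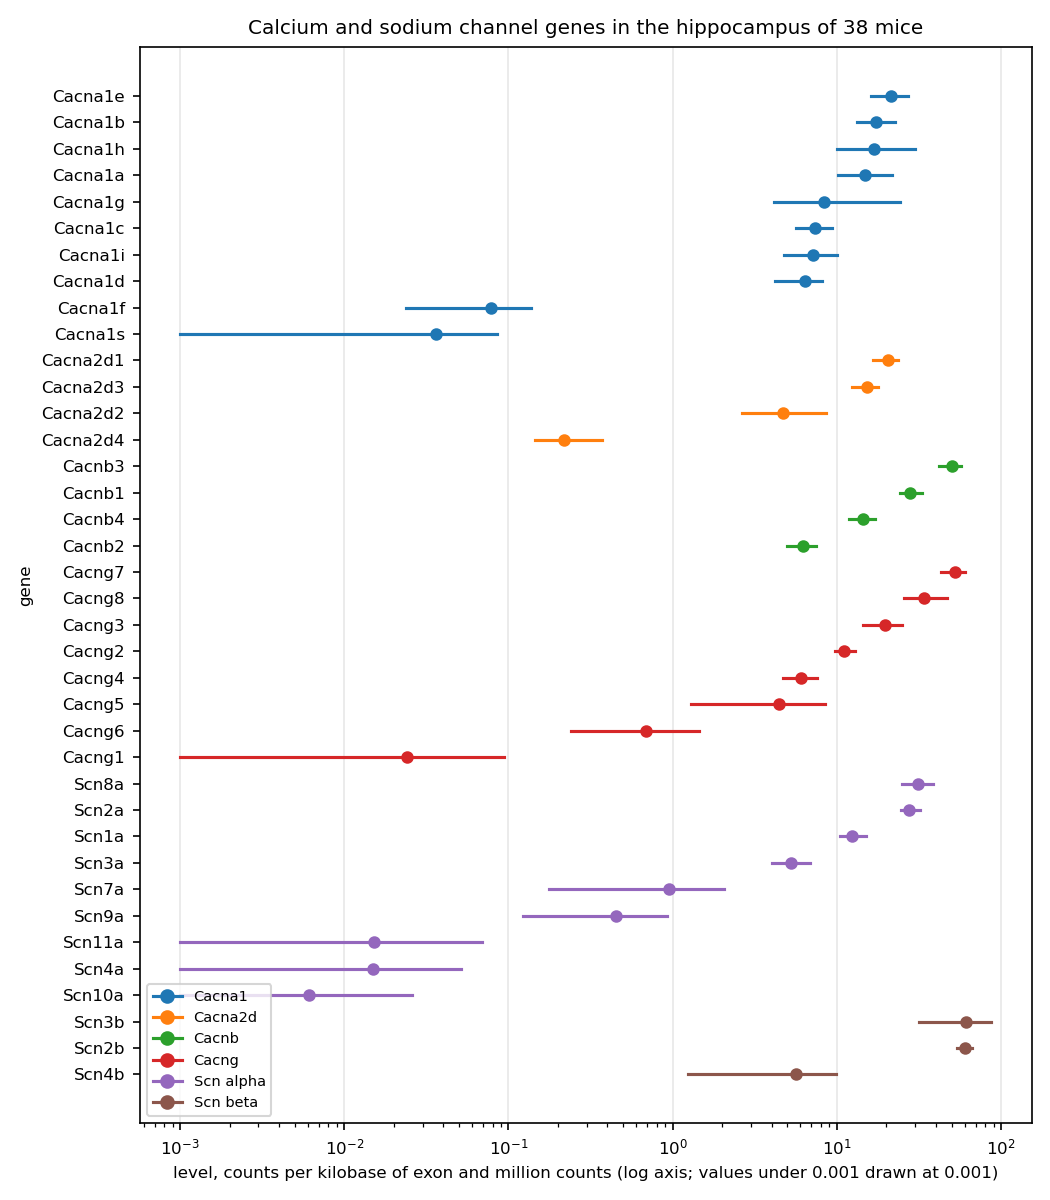
Level of 38 channel genes in CPM per kilobase of exon (RPKM, log axis), grouped by family. Points are means and bars the range over 38 mice. Scn3b and Scn2b stand at 61.6 and 60.5, and Scn4a, Scn10a and Scn11a have means of at most 0.0151.

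In the post-plaque cohort, several channel genes varied widely inside every group. The median of the group coefficients of variation was 75.4% for Scn7a, 68.3% for Scn9a, 64.2% for Cacng5, 63.9% for Scn4b and 51.1% for Cacna1g. In the pre-plaque cohort the same genes had 11.6%, 12.1%, 23.8%, 10.9% and 13.3%. Scn2b, by contrast, had 6.499% in the pre-plaque mice and 4.79% in the others.

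The high and low values fell in the same mice, as did those of genes known to mark the dorsal or ventral end of the hippocampus. Lct, a dorsal marker chosen after the data had been seen, was at 2.61 to 22.5 CPM in 9 post-plaque mice and at 77.9 to 142 CPM in the other 13. The 9 mice comprised 2 WT placebo, 3 WT anle138b, 2 APPPS1dE9 placebo and 2 APPPS1dE9 anle138b mice, so all 4 groups held both kinds. The ventral markers Trhr (7.46 to 20.6 against 0.626 to 5.43 CPM) and Grp (22.6 to 59.2 against 0.665 to 18.8 CPM) were higher in the 9 mice, while the other markers of either end on that list (Wfs1, Tdo2, Htr2c, Nr2f2 and Dcn) overlapped. The 16 pre-plaque mice had Lct at 39.3 to 63.4 CPM, between the 2 sets. The part of regional markers in the spread of the channel values within groups was not tested. Fits between groups with a covariate of regional markers are given below.

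Values of 8 of 36 members tested over all mice did not overlap between the 9 and the 13 mice (22.2%), and 9.72% of all 18232 genes tested did not. Of the 8, 4 were higher in the 9 mice (4.9% of all genes) and 4 were lower (4.82% of all genes). Scn7a was at 7.02 to 15.1 CPM in the 9 mice and at 1.30 to 5.45 CPM in the 13. Scn9a was at 7.17 to 11.8 against 1.56 to 3.55 CPM. These 2 pores are neighbours on chromosome 2, and the same mice were high for both.

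The T-type pores Cacna1g (96.8 to 246 against 42.1 to 87.8 CPM) and Cacna1i (77.7 to 98.7 against 47.1 to 65.9 CPM) were also higher in the 9 mice. The third T-type pore, Cacna1h, lay the other way with overlap, at 119 to 188 against 155 to 292 CPM. The T-type genes, which give low-threshold calcium currents and burst firing, thus did not vary as 1 group.

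The 4 members without overlap that were lower in the 9 mice were Cacng5, Scn4b, Scn3b and Cacna1a. Cacng5, a TARP, was at 4.93 to 7.90 against 12.4 to 32.4 CPM. Scn4b, which supports resurgent sodium current, was at 6.19 to 21.6 against 26.7 to 49.4 CPM. Scn3b was at 172 to 288 against 361 to 477 CPM and Cacna1a at 126 to 178 against 197 to 247 CPM. The ranges of the 28 other tested members overlapped, among them those of Scn2a, Scn8a and all 4 Cacnb genes.

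**Figure D2:**
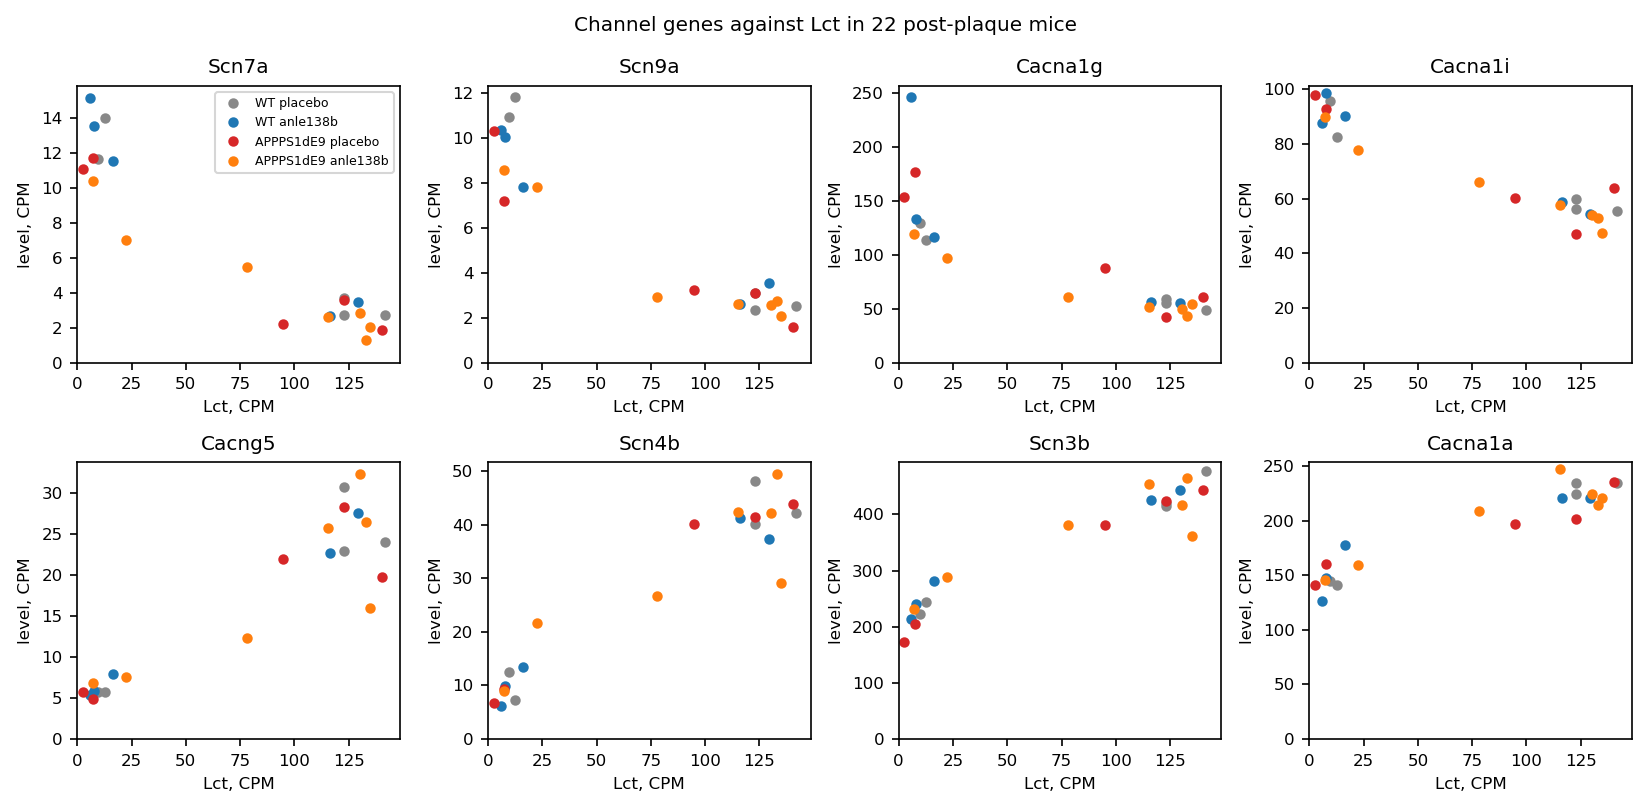
Level of 8 channel genes (CPM) against that of Lct (CPM) in the 22 post-plaque mice, one point per mouse, coloured by group. The 9 mice with Lct at up to 22.5 CPM hold the highest Scn7a, Scn9a, Cacna1g and Cacna1i values and the lowest Cacng5, Scn4b, Scn3b and Cacna1a values, and all 4 colours occur on both sides.

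Genotype was first compared in the pre-plaque cohort. On placebo, 0 of 35 members were called at an adjusted p under 0.1 by edgeR's quasi-likelihood test, against 0.0715% of 16774 genes, and DESeq2 called 0 as well. Without adjustment, 5 members (14.3%) had p under 0.05, all higher in APPPS1dE9 mice, where 11.1% of all genes passed in either direction and 5.22% were higher. The median log2 fold change was 0.09 over the members and 0.00 over all genes.

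Cacng8, a TARP of hippocampal AMPA receptors, had the smallest p. It was at 70.6, 62.4, 73.7 and 71.9 CPM in the WT placebo mice and at 75.99, 97.6, 84.3 and 78.2 CPM in the APPPS1dE9 placebo mice. The groups did not overlap, and the log2 fold change was 0.27 (SE 0.081, 95% interval 0.10 to 0.45), with an adjusted p of 0.349 in edgeR. Ttr was high in 3 of the 4 WT and in 1 of the 4 APPPS1dE9 mice. In the high-Ttr mice Cacng8 was at 62.4 to 73.7 (WT) and 75.99 CPM (APPPS1dE9), and in the low-Ttr mice at 71.9 and 78.2 to 97.6 CPM. With the mean of ventral minus dorsal markers as a covariate, chosen after the data had been seen, Cacng8 was called (log2 fold change 0.38, adjusted p = 0.036 in edgeR), along with Cacna1b, Cacna1c and Cacna1d, beside 591 genes in all. With choroid markers as a covariate the log2 fold change was 0.19 and the adjusted p 0.745. High Xist was found in 3 of the 4 WT and 0 of the 4 APPPS1dE9 mice. The log2 fold change of Cacng8 was 0.20 with Y-linked expression as a covariate (adjusted p = 0.996 in edgeR). Without the mice with high Xist it was 0.19, in a fit that held 1 WT mouse. Cacnb2, a beta subunit, followed at 73.6, 65.7, 72.3 and 83.5 CPM in WT and 79.9, 89.3, 84.3 and 80.1 CPM in APPPS1dE9 mice, with overlap and a log2 fold change of 0.18 (adjusted p = 0.414 in edgeR).

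On anle138b, 0 of 35 members were called by edgeR, against 0.047% of 17033 genes, and DESeq2 called 0. Only Cacng5 passed an unadjusted p under 0.05, where 5.64% of all genes did. Cacng5 was at 12.6, 14.5, 19.1 and 13.2 CPM in the WT mice and at 19.5, 25.3, 23.6 and 20.3 CPM in the APPPS1dE9 mice. All APPPS1dE9 values were above all WT values, by a log2 fold change of 0.58 (SE 0.139, 95% interval 0.27 to 0.89, adjusted p = 0.651 in edgeR). Without pre-plaque WT anle138b replicate 3 the adjusted p was 0.074, the lowest of 19 settings, over which it reached 0.9995. High Xist was found in 2 of the 4 WT and 0 of the 4 APPPS1dE9 mice. The log2 fold change of Cacng5 was 0.42 with Y-linked expression as a covariate (adjusted p = 0.464 in edgeR). Without the mice with high Xist it was 0.39 (adjusted p = 0.610 in edgeR). Cacna2d2, an alpha2delta subunit, was at 32.2, 36.6, 46.3 and 29.4 CPM in WT and at 48.3, 68.5, 52.8 and 33.5 CPM in APPPS1dE9 mice, and its log2 fold change of 0.50 had an interval from -0.08 to 1.08.

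The effect of anle138b in pre-plaque APPPS1dE9 mice was compared next. Again 0 of 35 members were called by edgeR, against 0.0529% of 17009 genes, but DESeq2 called 1 member, Cacna1a, among 208 genes. Among the 5 members (14.3%) with an unadjusted p under 0.05, 2 were higher on anle138b (5.5% of all genes) and 3 were lower (7.63% of all genes), and 13.1% of all genes passed in either direction. The median log2 fold change was -0.08 over the members and 0.00 over all genes.

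Cacna1a encodes the pore of the P/Q-type channel of presynaptic terminals. It was at 139, 180.0, 163 and 145 CPM on placebo and at 127, 121, 121 and 129.6 CPM on anle138b. All 4 treated mice were below all 4 placebo mice, and the log2 fold change was -0.33 (SE 0.073, 95% interval -0.49 to -0.17), with an adjusted p of 0.247 in edgeR. The call depended on the procedure. The adjusted p was 0.017 in DESeq2, 0.016 in edgeR without the filter on low counts, 0.041 with the regional marker covariate and 0.037 without pre-plaque APPPS1dE9 placebo replicate 1, and over all 19 settings it ranged from 0.016 to 0.66. Ttr was high in 1 of the 4 placebo and 3 of the 4 treated mice. In the high-Ttr mice Cacna1a was at 139 CPM on placebo and 121 to 127 CPM on anle138b, and in the low-Ttr mice at 145 to 180.0 and 129.6 CPM. With choroid markers as a covariate the log2 fold change was -0.26 and the adjusted p 0.602. The WT mice, at 117 to 168 CPM on placebo and 116 to 143 CPM on anle138b, overlapped both groups. Cacna1d, an L-type pore, was at 63.2, 83.2, 71.4 and 62.7 CPM on placebo and at 62.7, 53.4, 62.8 and 61.6 CPM on anle138b. The groups overlapped, and the log2 fold change was -0.22 (SE 0.091, adjusted p = 0.357 in edgeR).

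In pre-plaque WT mice anle138b and placebo were separated by 0 called members of 35 in edgeR and in DESeq2, and by 0 of 16766 genes in edgeR (0%). An unadjusted p under 0.05 was reached by 0 members and 1.85% of all genes. The smallest p belonged to the scarce Cacna1f, at 0.44, 0.248, 0.571 and 0.409 CPM on placebo and 0.837, 0.626, 0.787 and 0.377 CPM on anle138b. Its 6 to 31 counts per library over all mice limit the precision, and the log2 fold change of 0.63 had an interval from -0.11 to 1.36. Cacna1e, the most abundant calcium channel pore, was at 406, 433, 457 and 482 CPM on placebo and 496, 461, 477 and 480.4 CPM on anle138b, with a log2 fold change of 0.11 (95% interval -0.02 to 0.24).

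In the post-plaque cohort on placebo, 0 of 35 members were called between genotypes by edgeR, against 0.324% of 16971 genes, and DESeq2 called 0. An unadjusted p under 0.05 was reached by 0 members and 4.1% of all genes. High Xist was found in 3 of the 5 WT and 0 of the 5 APPPS1dE9 mice. Cacnb4, a beta subunit, was at 125, 127, 134, 136 and 138 CPM in WT and at 106, 117, 118, 126 and 133 CPM in APPPS1dE9 mice, listed from lowest to highest. The groups overlapped, and the log2 fold change was -0.14 (SE 0.066). The TARP gene Cacng3 was at 47.6, 54.5, 56.5, 61.8 and 64.8 CPM in WT and at 40.2, 44.7, 46.2, 53.8 and 59.3 CPM in APPPS1dE9 mice, with a log2 fold change of -0.23 (SE 0.115). Within the mice of low Lct the mean log2 difference of Cacng3 was -0.26 (2 against 2 mice) and within the others -0.20 (3 against 3).

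On anle138b the post-plaque genotypes gave 0 called members of 35 in edgeR, against 0.723% of 17151 genes, and 0 in DESeq2. Without adjustment, 2 members (5.71%) had p under 0.05, both lower in APPPS1dE9 mice, where 5.78% of all genes passed in either direction and 2.17% were lower. High Xist was found in 3 of the 5 WT and 1 of the 7 APPPS1dE9 mice. Cacna1g was at 55.3, 55.9, 116, 133 and 246 CPM in the 5 WT mice, and in the 7 APPPS1dE9 mice the lowest, median and highest values were 43.5, 54.1 and 119 CPM. The groups overlapped. The log2 fold change was -0.84 (SE 0.374, adjusted p = 0.838 in edgeR). Low Lct was found in 3 of the 5 WT and 2 of the 7 APPPS1dE9 mice, and the mean log2 difference of Cacna1g was -0.54 within the low-Lct mice and -0.10 within the others.

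Anle138b against placebo gave 0 called members of 35 in post-plaque APPPS1dE9 mice and 0 of 35 in post-plaque WT mice, in edgeR and in DESeq2. In edgeR 0 of 17110 and 0 of 16986 genes were called (0% in both). With p under 0.05 unadjusted, 1 member passed in APPPS1dE9 mice (1.48% of all genes) and 0 in WT mice (1.25% of all genes). The former was Cacng3, at 40.2, 44.7, 46.2, 53.8 and 59.3 CPM on placebo and with 50.4, 56.1 and 68.9 CPM as lowest, median and highest value on anle138b. The groups overlapped, with a log2 fold change of 0.24 (SE 0.101, adjusted p = 0.999 in edgeR). Its mean log2 difference was 0.52 in the low-Lct mice (2 against 2) and 0.09 in the others (5 against 3).

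Cacna1g followed in APPPS1dE9 mice with a log2 fold change of -0.61 and an interval from -1.39 to 0.16. In WT mice Cacnb4 (log2 fold change -0.08, 95% interval -0.20 to 0.03) and Cacna1f (0.33, -0.20 to 0.87) had the smallest p. Without the 12 mice with high Xist, 21 members and 5550 genes were called between the chows in post-plaque WT mice. That fit held 2 mice per group, mice 53 and 56 on placebo (Lct 123 and 142 CPM) and mice 60 and 61 on anle138b (Lct 7.78 and 16.2 CPM), so chow and Lct cannot be told apart there.

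**Figure D3:**
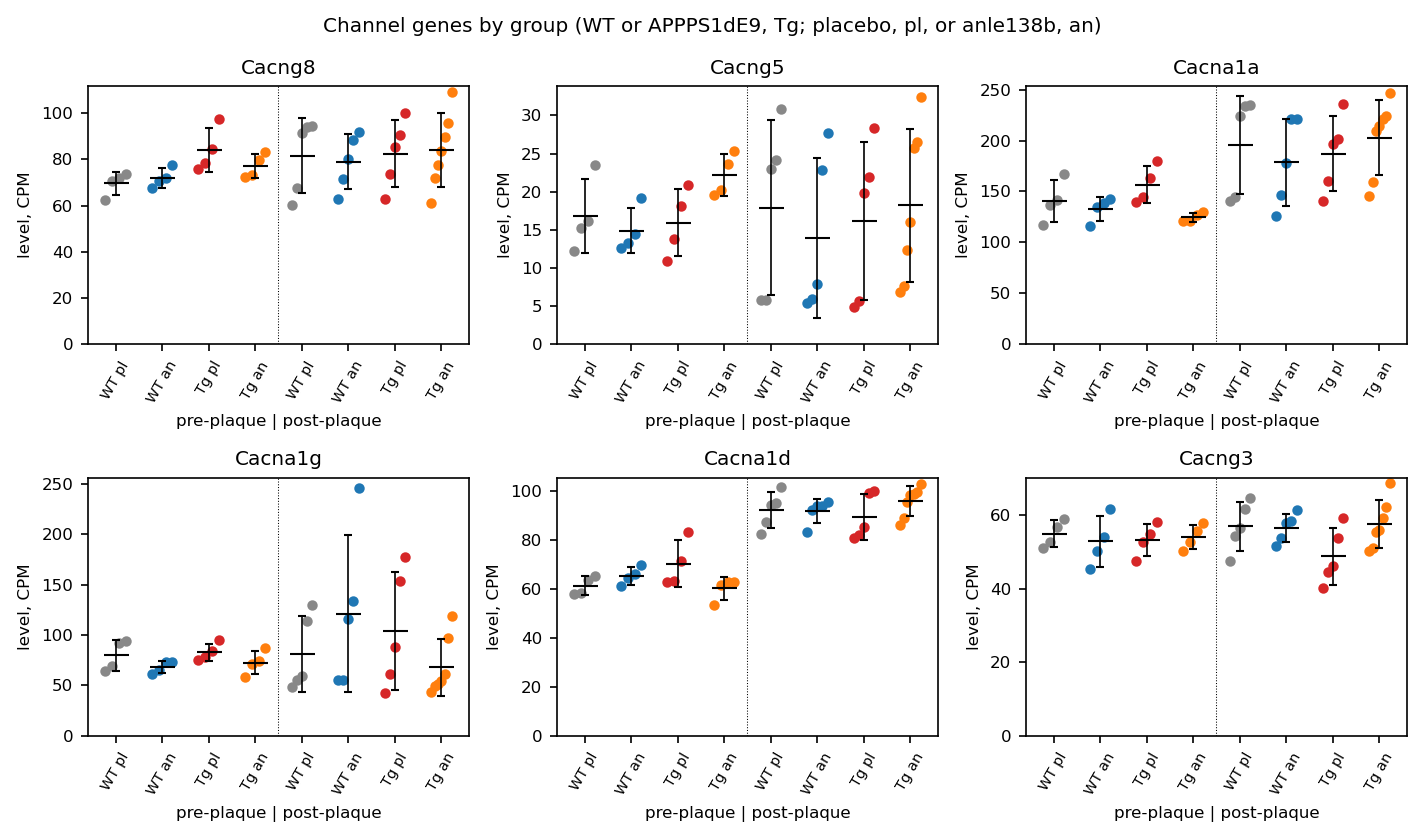
Level (CPM) of 6 channel genes in the 8 groups, one point per mouse, with mean and SD as bars (n = 4 per pre-plaque group, and 5, 5, 5 and 7 in the post-plaque groups). Cacna1a in pre-plaque APPPS1dE9 mice on anle138b lies at 121 to 129.6 CPM, below the placebo mice, Cacna1d is higher in the post-plaque groups, and Cacng5 and Cacna1g spread widely within each post-plaque group.

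Averaged over cohorts and chows, the genotype contrast of the fit over 38 mice called 0 of 36 members in edgeR, against 1.46% of 18232 genes, and DESeq2 called 0. Only 2 members had an unadjusted p under 0.05, both higher in APPPS1dE9 mice (5.56%), where 8.91% of all genes passed in either direction and 4.82% were higher. These were Cacnb1 (log2 fold change 0.08, 95% interval 0.01 to 0.14, adjusted p = 0.422 in edgeR) and Cacna2d3 (0.09, 95% interval 0.01 to 0.16, adjusted p = 0.503). For 22 of the 36 members the whole 95% interval lay within 0.25 on the log2 scale, and for 30 within 0.5. The widest reached 0.91, for Cacna1s. The fit behind these intervals had no term for Xist or Y-linked expression. All but 1 of the 12 mice with high Xist were WT, so the intervals do not bound an effect of genotype apart from sex.

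Averaged over cohorts and genotypes, anle138b against placebo called 0 of 36 members in edgeR and DESeq2, and 0 of 18232 genes in edgeR (0%). For 0 members and 4.81% of all genes the unadjusted p was under 0.05. The smallest p was that of Cacnb1, with a log2 fold change of -0.05 (95% interval -0.12 to 0.01). The interval lay within 0.25 for 21 members and within 0.5 for 28.

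**Figure D4:**
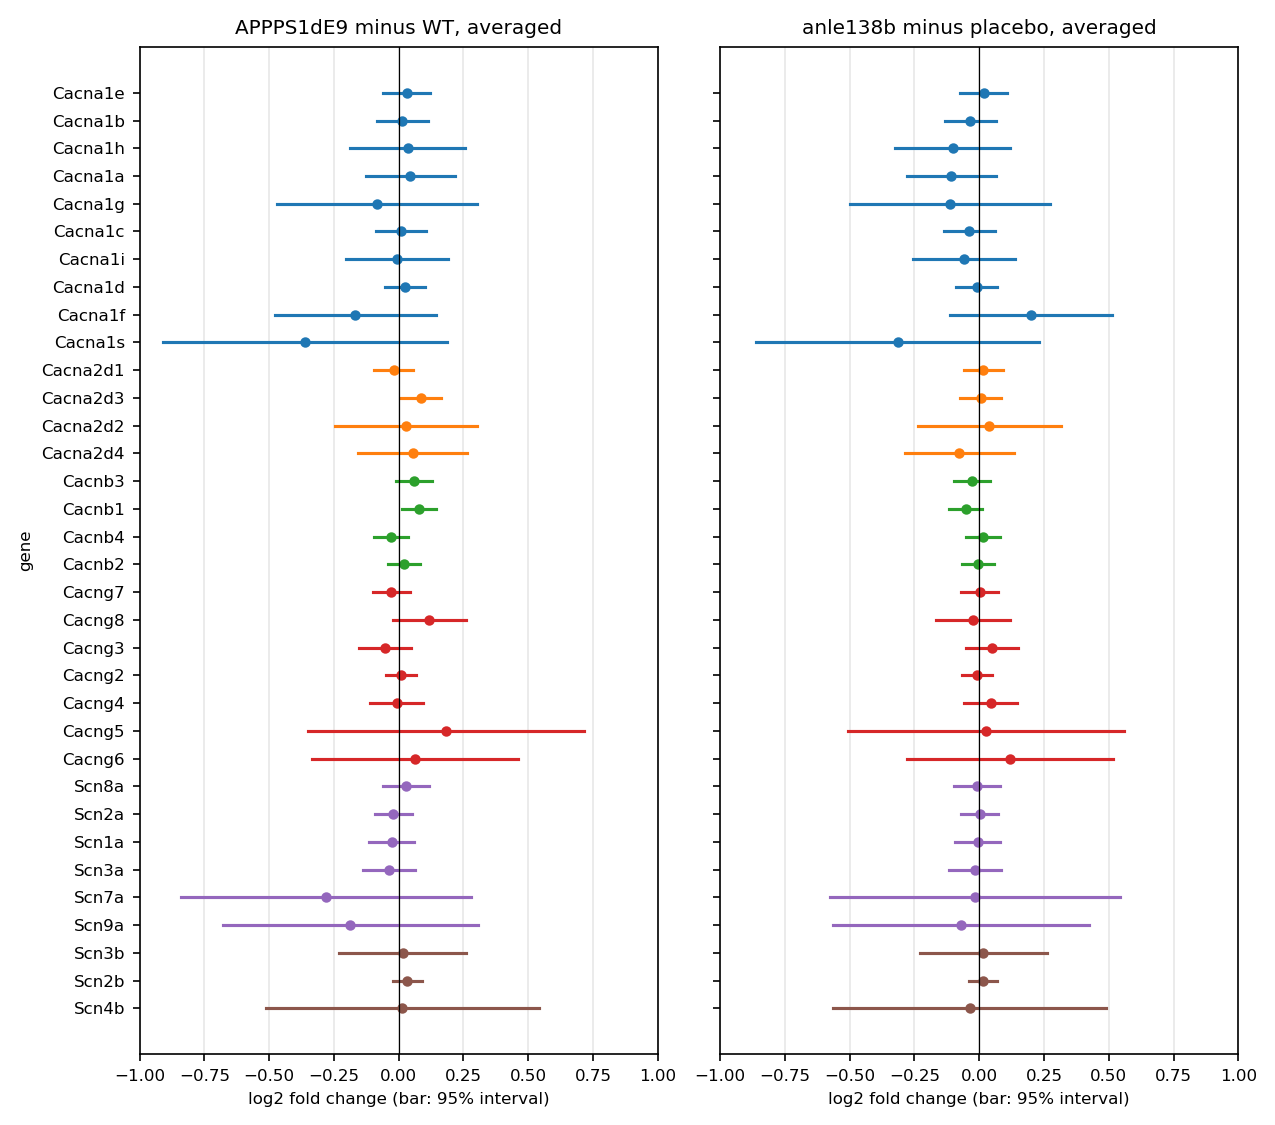
Log2 fold change of 34 of the tested channel genes for genotype (left) and anle138b (right), averaged over the other factors, with 95% intervals as bars, coloured by family. No gene was called in either contrast, and the bars that reach farthest from 0 belong to Cacna1s, at up to 0.91 and 0.86.

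Whether the effect of anle138b differed between genotypes was tested by the interaction. It called 0 of 35 members and 0% of 17404 genes in the pre-plaque cohort, and 0 of 35 members and 0% of 17668 genes in the post-plaque cohort, in edgeR. DESeq2 also called 0 members in both. At an unadjusted p under 0.05, 2 pre-plaque members (7.99% of all genes) and 0 post-plaque members (2.3% of all genes) passed. The 2 were Cacna1d (interaction of -0.31 on the log2 scale, SE 0.114) and Cacna1e (-0.24, SE 0.097), both with an adjusted p of 0.618 in edgeR. The difference in the placebo genotype effect between the cohorts called 0 of 35 members in edgeR, against 0% of 17681 genes. It was below 0 for 28 members and above 0 for 7, where 48.6% of all genes were above 0. The median was -0.14 on the log2 scale over the members and -0.01 over all genes. Only 1 member, Cacnb2, passed an unadjusted p under 0.05 (6.16% of all genes), with a difference of -0.23 (SE 0.088). DESeq2 called 0 members in this contrast. Of its pre-plaque mice, 3 WT and 1 APPPS1dE9 had high Ttr.

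The cohorts themselves differed widely. In the post-plaque against pre-plaque contrast 17 of 36 members were called (47.2%), 12 higher and 5 lower in the post-plaque mice, against 61.8% of 18232 genes (29.7% higher and 32.1% lower). The share of members called was below that of all genes, a difference that was not tested. Age and cohort cannot be told apart in this contrast, nor can any sequencing run that went with cohort. The labels name no run. Tissue markers moved in it too, with 6 of 6 choroid plexus markers (median log2 fold change -3.47), 5 of 5 blood markers (-0.61), 6 of 8 interneuron markers (-0.24), 5 of 6 astrocyte markers (-0.19) and 5 of 8 thalamus markers (-0.43) called lower in the post-plaque mice, and 3 of 6 plaque-associated microglia markers (0.43) called higher. Beyond the choroid covariate given with the subunits, their part in the channel values was not tested. Cacna1 pores made up 7 of the 12 that were higher.

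Cacna1d had the smallest p. Its group means ran from 60.1 ± 4.54 to 70.1 ± 9.59 CPM (SD, n = 4 each) in the pre-plaque groups and from 89.4 ± 9.38 to 95.7 ± 6.10 CPM (n = 5 and 7) in the post-plaque groups, a log2 fold change of 0.52 (SE 0.039, adjusted p = 3.1e-13 in edgeR). Cacna1h had 110.3 to 128 against 191 to 203 CPM in group means (log2 fold change 0.75, adjusted p = 8.2e-07), and Cacna1a 125 to 157 against 178 to 203 CPM (0.46, adjusted p = 2.6e-05). The other pores that rose had adjusted p-values of at most 2.6e-05 in edgeR. Group means of Cacna1e ran from 445 to 505 CPM (pre-plaque) and from 573 to 609.8 CPM (post-plaque, log2 fold change 0.33), and those of Cacna1b from 146 to 166 and from 180.4 to 201 CPM (0.32). Cacna1c had 129 to 153 against 167 to 173 CPM (0.29), and the scarce Cacna1f 0.397 to 0.657 against 0.784 to 0.996 CPM (0.83). Scn8a was the one sodium channel pore that rose, with 422 to 469 against 519 to 543 CPM (0.27). Cacna1a also differed between the post-plaque mice of low and high Lct, at 126 to 178 against 197 to 247 CPM. The low-Lct values lay within the pre-plaque range of 116 to 180.0 CPM. Cacna1h had a median of 143 CPM in the low-Lct and 237 CPM in the high-Lct mice, with overlap, and 115 CPM in the pre-plaque mice. With the regional marker covariate 23 members were called, beside 12039 genes in all, against 11276 genes without it.

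Of the auxiliary subunits, 4 were called higher and 4 lower. Pre-plaque and post-plaque group means were 73.8 to 83.4 and 84.6 to 90.7 CPM for Cacnb2 (log2 fold change 0.16), and 113 to 128 and 128 to 135 CPM for Cacnb1 (0.13). Cacna2d1 had 235 to 249 and 249 to 268 CPM (0.11), and Cacnb3 186 to 207 and 198 to 209 CPM (0.08). Of these 4, the ranges of group means overlapped for Cacnb1 and Cacnb3. Among those called lower, Cacnb4 had 130.4 to 142 and 120.1 to 132 CPM (-0.12) and the TARP gene Cacng2 62.4 to 64.6 and 58.2 to 60.999 CPM (-0.10). Cacng4 had 22.3 to 23.9 and 20.1 to 20.8 CPM (-0.18), and Cacna2d2 36.1 to 50.8 and 30.5 to 37.8 CPM (-0.27). The call of Cacna2d2 (adjusted p = 0.087 in edgeR) was lost in 20 of the 38 fits that left out 1 mouse, and its log2 fold change was -0.52 without the 12 mice with high Xist and -0.06 (adjusted p = 0.848 in edgeR) with choroid markers as a covariate. With that covariate 11 members were called, and the genes called in all fell from 11276 to 8106. Cacna2d1, Cacnb1, Cacnb2 and Cacng4 were among the members no longer called, and the log2 fold change of Cacnb3 was -0.013.

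**Figure D5:**
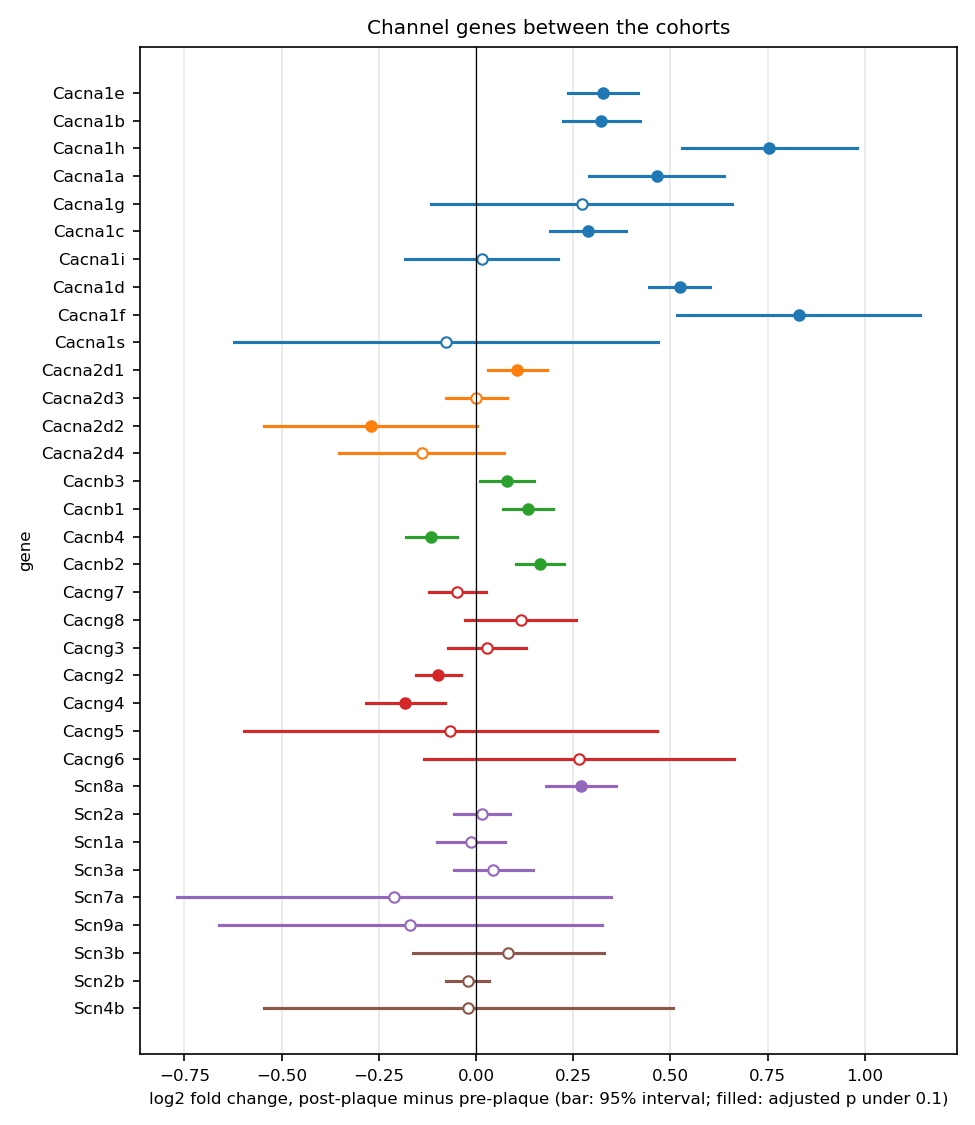
Log2 fold change of 34 of the tested channel genes in the post-plaque against the pre-plaque mice, with 95% intervals as bars, and filled points for an adjusted p under 0.1. Cacna1h, Cacna1d and Cacna1a are among the filled points to the right of 0, at 0.75, 0.52 and 0.46, and Cacna2d2 stands at -0.27.

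A list of 51 genes whose products bind, anchor or act beside these channels was counted alongside. In the 8 pairwise comparisons 0 of the 50 or 51 tested were called in the main edgeR fits. In the pre-plaque placebo genotype effect 1 was called in DESeq2 (of 91 genes in all) and 1 without the filter (of 110). With the regional marker covariate 6 were called there (of 591), and 4 for anle138b in pre-plaque APPPS1dE9 mice (of 320). Leaving out pre-plaque APPPS1dE9 placebo replicate 1 gave 1 in each. Without the 12 mice with high Xist, anle138b in post-plaque WT mice gave 29 (of 5550, 2 mice per group). In the averaged genotype contrast 1 of 51 was called, Rims1, which encodes a presynaptic active-zone protein that binds calcium channels (log2 fold change 0.18, SE 0.037, adjusted p = 0.0041 in edgeR). With Y-linked expression as a covariate, or without the 12 mice with high Xist, 0 of 51 were called there. Between the cohorts 20 partners were higher and 14 were lower in the post-plaque mice (66.7% of 51), near the 61.8% of all genes called there. The smallest p-values belonged to Unc79 (0.38 on the log2 scale), Ryr3 (0.51), Cabp1 (0.37), Sptbn4 (0.47), Stac3 (1.28) and Prrt2 (0.68), which include a subunit of a sodium leak channel (Unc79), a calcium release channel (Ryr3) and a spectrin of the axon initial segment (Sptbn4).

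Among all genes tested, those whose deviations from the group means were ranked most like those of Cacna1d over the 38 mice were Eml5 (Spearman's rho 0.86), Gm15624 (0.85) and Ubr2 (0.84). This is a description of likeness over libraries that differed in depth and in regional and choroid plexus markers, whose part was not tested.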

How the data were processed

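Hippocampal RNA of 38 mice in 8 groups was sequenced from polyA-selected libraries, 1 library per mouse. Per the labels and the study's methods, the authors aligned reads to mm10 with STAR and counted reads per gene with HTSeq, and the deposited values are raw counts. The 40 channel genes and all gene lists were chosen with earlier results of these data known. Ensembl IDs were matched to GENCODE M21 (48349 of 48709). Groups were taken from the titles. Genes were kept by filterByExpr (minimum count 10, minimum total 15), TMM-scaled, and compared by the quasi-likelihood test of edgeR (4.0.16, R 4.3.3) with Benjamini-Hochberg adjustment over all genes and a threshold of 0.1. Each of 8 pairwise comparisons used its own groups, and averaged contrasts used all 38 mice. Levels per length used the union of exons. Members named were those called, the 2 of smallest p in each pairwise comparison and the highest per length in each family, while genes described by their split with Lct, and those printed as sequence, were chosen after their values were seen. The same holds for Lct itself, and for the regional and choroid marker covariates. Alternatives were DESeq2 (1.42.0), RLE size factors, no filter, a threshold of 0.05, covariates, a replicate block, lane, and each mouse left out. The test was checked on counts simulated for some of the comparisons. Their noise was independent between mice and genes, without the marker, Xist or lane differences of the real libraries. The check therefore cannot show how the test behaves under such differences. Some members are counted but not reported by name here. Depth was 15847985 to 31895808 counts, and p-values rest on the spread between mice.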

Additional observations from a re-analysis of the deposited data

Results flagged for a closer look

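Among 168 sets of values (a named channel gene in 1 group), 6 held a mouse set far apart from the rest of its group, by the gap to its neighbour over the range of the group. Chance alone would give about 5% of such sets, and 3.57% were found. Each concerned a different mouse. Cacna1d was at 83.1 CPM in mouse 60 of the post-plaque WT anle138b group, against 92.3 to 95.3 CPM in the others, and at 53.4 CPM in mouse 16 of the pre-plaque APPPS1dE9 anle138b group, against 61.6 to 62.8 CPM. Cacna1h was at 97.8 CPM in mouse 41 of the pre-plaque WT anle138b group (others 113 to 115 CPM). Cacnb1 was at 134 CPM in mouse 61 of the post-plaque WT anle138b group (others 125 to 127 CPM). Cacng4 was at 26.8 CPM in mouse 37 of the pre-plaque WT placebo group (others 21.8 to 22.6 CPM). Cacng7 was at 107 CPM in mouse 86 of the post-plaque APPPS1dE9 placebo group (others 124 to 129.6 CPM). Mice 60, 61 and 86 were among the 9 post-plaque mice with low Lct.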

How the results depend on the processing

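Counts of channel genes called moved from 0 in 4 comparisons. The pre-plaque placebo genotype effect gave 4 with the regional marker covariate, where the genes called in all rose from 12 to 591. Anle138b in pre-plaque APPPS1dE9 mice gave 1 (Cacna1a) in DESeq2, without the filter on low counts, and with the regional marker covariate, and 0 to 1 when each mouse was left out. The anle138b-treated genotype effect in the pre-plaque cohort gave 0 to 1 when each mouse was left out. Anle138b in post-plaque WT mice gave 21 without the 12 mice with high Xist, where the genes called in all rose from 0 to 5550. The cause was not tested in any of these. In the cohort contrast 17 became 11 with the choroid marker covariate, 23 with the regional marker covariate, 19 in DESeq2, 18 without the filter, 16 at a threshold of 0.05 and 16 to 18 when each mouse was left out. The genes called in all moved as well, from 11276 to 8106, 12039, 12287 and 12250 in the first 4 of these settings. The log2 fold change of Cacnb3 turned to -0.013 there with the choroid covariate. The count of members called in that contrast stayed at 17 with RLE size factors, with the Y-linked covariate and without the mice with high Xist. In the other comparisons, counts of channel genes under the alternatives run that are not named here were 0. Without the mice with high Xist, the pre-plaque WT placebo group held 1 mouse, assumed to vary like its comparison group. By the longest transcript, 5 of 6 families kept the same leading gene. Deviations of same-numbered mice had a mean correlation of -0.27 to 0.36 over the 8 pairwise comparisons, and no comparison had all pairs above 0.1. In pre-plaque WT mice 3 of 4 placebo mice were most like the anle138b mouse of their own number, against 0 to 2 in the other comparisons. With 4 or 5 pairs each, these values do not settle whether the numbers pair mice. With the replicate block, 0 channel genes were called in the 13 comparisons where it could be fitted. In the cohort contrast the block lies within cohort, and it was not run. Depth limits Cacna1s, Cacna1f and the 4 untested genes most.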
